A study of Mus musculus with 8 samples.

Results

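The 10 genes examined here encode parts of the Hippo pathway. Among them are the kinases *Stk3*, *Lats1* and *Lats2* and the scaffold *Amotl2*. The rest are the coactivators *Yap1* and *Wwtr1* (the gene of TAZ), and the DNA-binding factors *Tead1*, *Tead2*, *Tead3* and *Tead4*. The 10 genes were taken by gene symbol from the 48526 genes of the deposited count table. All 10 were among the 9744 genes tested. Their normalized count (the read count divided by the DESeq2 size factor of the library) reached 20 in all 8 libraries for each of them, and their raw counts ranged from 23 to 2083. The 8 libraries form 4 pairs, a left and a right heart field from each of the embryos named L29-3, L43-5, L46-8 and L49-3. These were wild-type male C57bl6/J mouse embryos at E8.5f, a stage of heart looping, with no treatment and no transgene. Each heart field was micro-dissected after the heart tube and the back had been taken away, then cut along the midline, so that every embryo gave a left and a right sample of polyA RNA. The tissue is bulk and holds several cell types.

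In the Hippo pathway, the kinases STK3 and STK4 activate LATS1 and LATS2, which phosphorylate YAP and TAZ and so keep them out of the nucleus or lead to their degradation. When the kinases are less active, YAP and TAZ enter the nucleus and switch on genes together with TEAD factors, which bind DNA but activate little by themselves. The pathway is known for the control of organ size, and in the mouse heart YAP and TEAD1 are needed for the growth of embryonic cardiomyocytes. These steps work mainly through phosphorylation and localization of the proteins, which RNA levels do not measure.

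Some target genes of YAP and TAZ encode parts of the pathway itself, so the promoters of the members were searched for GGAATG, the core of the sequence that TEAD factors bind, and for its reverse complement CATTCC. RefSeq promoter windows of GRCm38.p6, from 250 bases before to 50 bases after a start site, were at hand for 7 of the 10 members. Of these genes, 5 had the motif in at least 1 of their windows, namely *Yap1*, *Wwtr1*, *Tead3*, *Lats2* and *Amotl2*, and *Tead2* and *Lats1* had it in none. Counted by window, 7 of 11 windows of the members held it, and 2 overlapping windows of *Wwtr1* hold the same match. Over all genes with a window, 16.6% had the motif, and over all windows 14.7%. A match of these letters is not evidence of binding. One stretch is shown for each member with a match and for the target gene *Ccn1*, with the motif in capitals between 20 flanking bases, because these are the letters a TEAD factor could read in genes whose level is described next. The stretch of *Tead3* holds 2 matches.
Yap1, chr9:8004712-8004757, minus strand: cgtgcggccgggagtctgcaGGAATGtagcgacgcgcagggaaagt
Wwtr1, chr3:57576021-57576066, minus strand: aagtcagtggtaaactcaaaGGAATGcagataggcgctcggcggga
Tead3, chr17:28350698-28350743, minus strand: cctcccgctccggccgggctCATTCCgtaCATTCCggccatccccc
Lats2, chr14:57746094-57746139, minus strand: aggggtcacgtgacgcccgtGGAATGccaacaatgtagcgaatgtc
Amotl2, chr9:102717719-102717764, plus strand: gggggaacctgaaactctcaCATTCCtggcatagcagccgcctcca
Ccn1, chr3:145650063-145650108, minus strand: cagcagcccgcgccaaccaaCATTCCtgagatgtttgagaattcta
The window of *Lats1* is shown whole, since *Lats1* had the largest difference between the sides among the members, and so is the window of *Ankrd1*, the target gene with the smallest p between embryos, which holds the motif at 2 places.
Lats1 promoter window, chr10:7680959-7681258, plus strand: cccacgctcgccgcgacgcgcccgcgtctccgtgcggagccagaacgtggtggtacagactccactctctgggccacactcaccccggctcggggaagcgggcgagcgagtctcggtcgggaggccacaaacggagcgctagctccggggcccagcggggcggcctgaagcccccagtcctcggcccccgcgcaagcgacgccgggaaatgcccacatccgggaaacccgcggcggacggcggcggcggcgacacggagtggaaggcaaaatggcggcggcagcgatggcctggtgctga
Ankrd1 promoter window, chr19:36119795-36120094, minus strand: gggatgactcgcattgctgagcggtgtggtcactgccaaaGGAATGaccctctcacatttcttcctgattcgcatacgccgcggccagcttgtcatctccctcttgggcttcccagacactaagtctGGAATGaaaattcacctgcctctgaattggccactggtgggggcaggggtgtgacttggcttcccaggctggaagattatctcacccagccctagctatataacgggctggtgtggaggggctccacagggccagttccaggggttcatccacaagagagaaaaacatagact

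Total counts lay between 1147446 and 3520753 per library (median 1916167) and set the precision of each value. Over all 9744 genes, 297 (3.05%) reached the threshold of the study in a quasi-likelihood test by edgeR that was blocked by embryo. This threshold is a fold change between the sides of 1.2 or more together with an unadjusted p no higher than 0.05. The study listed genes that passed it with either edgeR, DESeq2 or limma-voom, whereas the calls here are from edgeR unless another tool is named. After Benjamini-Hochberg adjustment, 1 gene (0.0103%), which is no member of the pathway, had an adjusted p under 0.05, and 425 genes (4.36%) had an unadjusted p under 0.05. Markers of the second heart field (*Isl1*, *Tbx1*, *Fgf8*, *Fgf10*, *Six2*, *Mef2c* and *Hand2*) were present, with a summed normalized count between 629 and 933 in every library. Markers of cardiomyocytes were present as well, with a sum between 342 and 3482, and the lowest value was in the left library of L49-3. In bulk tissue, fewer cells of a type and less RNA per cell cannot be told apart.

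Between the left and right heart fields, 9 of the 10 Hippo genes had log2 fold changes from -0.11 to 0.08, and *Lats1* was the exception at the threshold of the study. *Lats1*, which encodes a kinase that phosphorylates YAP and TAZ, was 1.26-fold higher on the left. *Yap1* and *Tead2* had log2 fold changes of -0.00, with narrow intervals. Of the 10 members, 1 passed the threshold of the study, against 3.05% of all genes tested, and 0 had an adjusted p under 0.05, with edgeR as with limma-voom and DESeq2. At an unadjusted p under 0.05 there was 1 member, again *Lats1*, against 4.36% of all genes tested. The median log2 fold change of the members was -0.00, as it was over all genes tested, with 4 members higher and 6 lower on the left. *Yap1* and *Tead2* lay so near to 0 that their sign changed with the normalization.

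**Figure D1:**
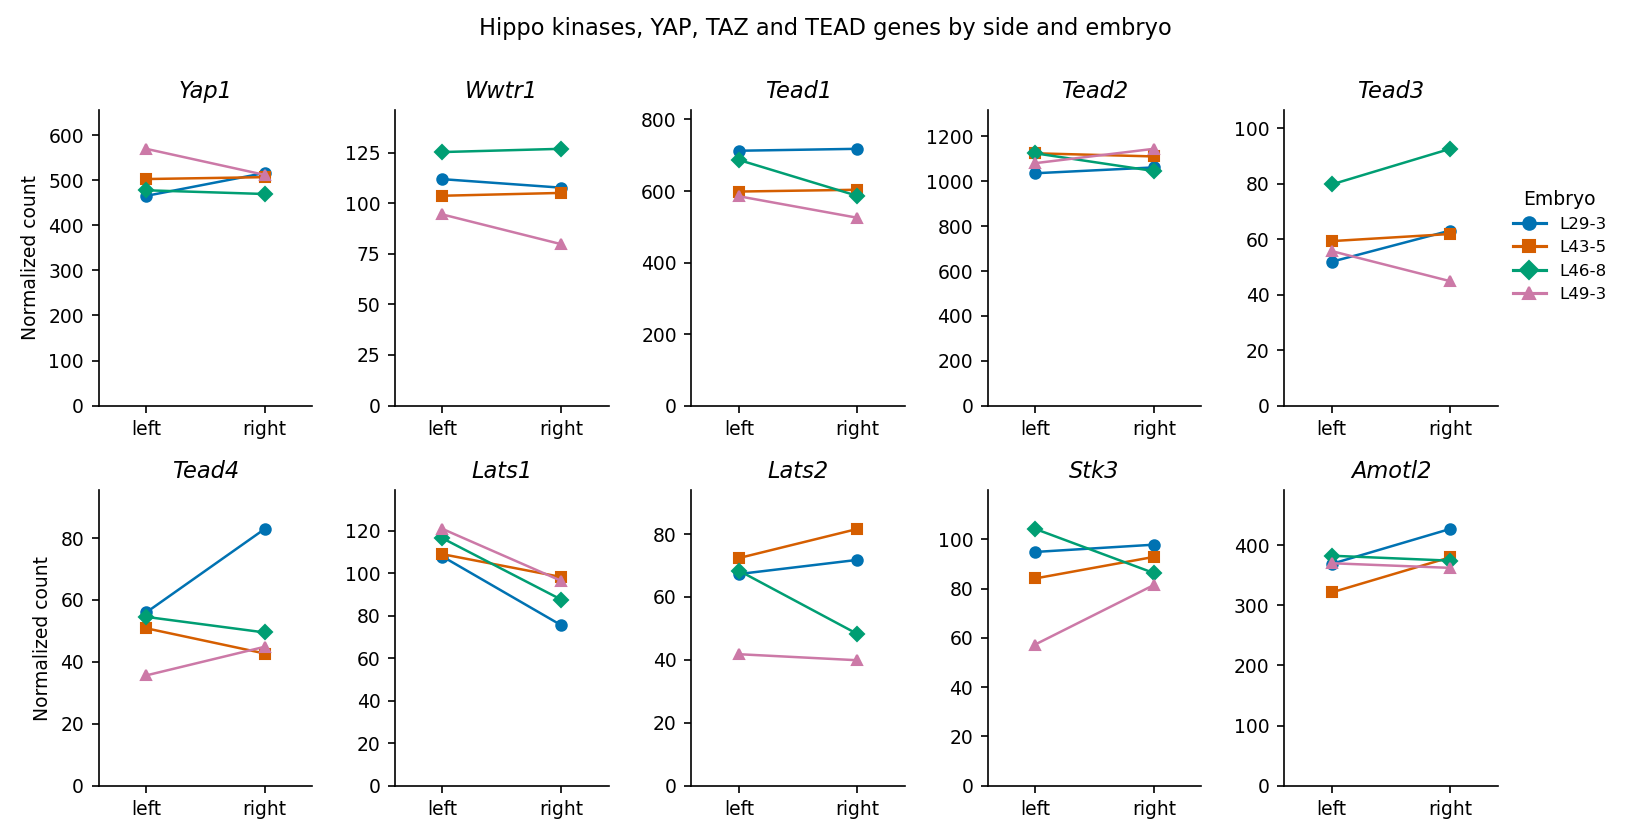
Normalized count of each of the 10 genes (vertical axis, from 0) in the left and right heart field of each embryo, the libraries of an embryo being joined by a line. The lines of *Lats1* fall from left to right in all 4 embryos, whereas those of the other genes run in both directions.

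*Lats1* (ENSMUSG00000040021, chromosome 10 from 7681214 to 7716460 of GRCm38, plus strand) had a normalized count of 108, 109, 116 and 121 on the left in L29-3, L43-5, L46-8 and L49-3, and of 75.5, 98.2, 87.6 and 96.4 on the right. Every left library was above every right library, which was so for 2.51% of all genes tested, in either direction. In each embryo the left side was the higher, with log2 ratios of 0.51, 0.15, 0.40 and 0.31, and 12.4% of all genes tested had the same sign in the 4 embryos. The left mean was 114 ± 6.18 and the right mean 89.4 ± 10.4 (SD over 4 embryos). This is a log2 fold change of 0.33 (standard error 0.12), with a 95% interval from 0.07 to 0.59, which is 1.05-fold to 1.51-fold. The edgeR test gave 0.0173 as the unadjusted p and 0.987 as the Benjamini-Hochberg adjusted p, so that *Lats1* failed the correction for the number of genes tested. Among all genes, 1.63% passed the threshold of the study as higher on the left.

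The call of *Lats1* at the unadjusted threshold was lost in 3 settings, in which the log2 fold change stayed between 0.28 and 0.34. The unadjusted p was 0.11 with DESeq2, and in edgeR it was 0.0727 without L29-3 and 0.0543 without L46-8. Among the 5 neural tube markers tested, *Sox1* and *Pax6* were lower on the left at the same threshold. Their log2 fold changes were -0.98 and -0.83, with adjusted p-values of 0.987 in edgeR, and in L29-3 both were higher on the left. *Sox2*, *Rfx4* and *Nkx6-1* did not pass. The sum of the 6 neural tube markers was between 114 and 486 on the left, against between 260 and 676 on the right, the left sum being the higher in 1 of 4 embryos, and none of the 6 was at 0 throughout. The sum of the 6 endothelium markers was between 605 and 794 on the left, against 452 to 760 on the right, and the left sum was the higher in all 4 embryos, as the left value of *Lats1* was. Among these markers *Kdr* had the higher value on the left in 4 of 4 embryos, with a log2 fold change of 0.20 and an unadjusted edgeR p of 0.0307, and the ratios of the other 5 ran in both directions. The sum of the 6 cardiomyocyte markers was between 342 and 3313 on the left, against 1195 to 3482 on the right. Here too the left sum was the higher in 1 of 4 embryos, and 0 of the 5 tested passed the threshold. The part of the neural tube, endothelium and cardiomyocyte markers in the difference of *Lats1* was not tested.

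**Figure D2:**
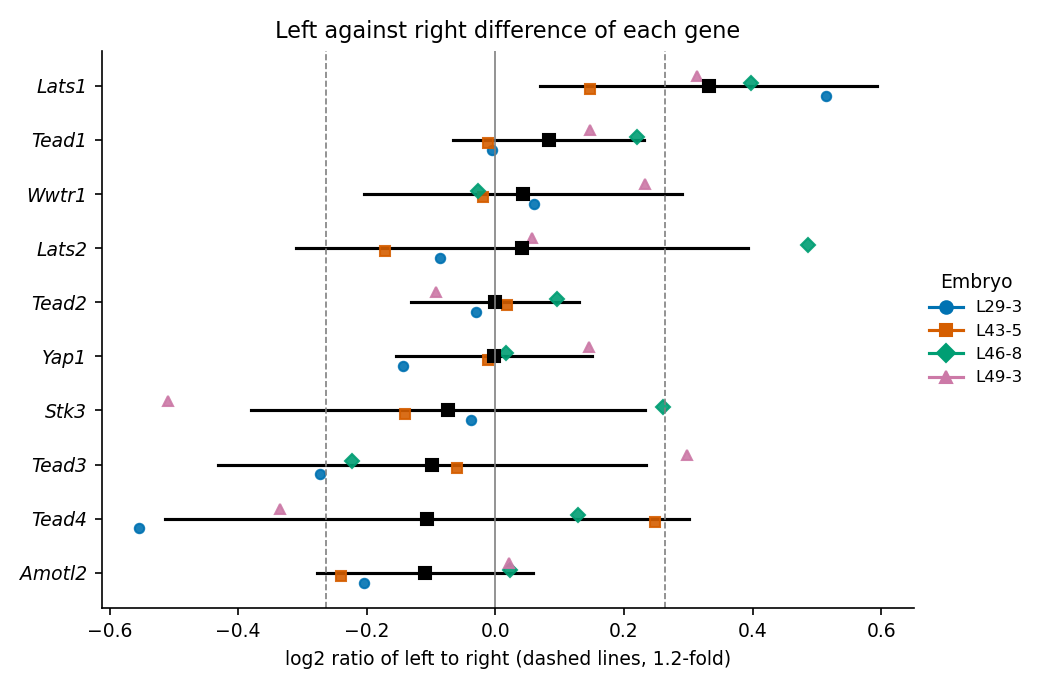
Difference between the sides for each of the 10 genes, as the log2 ratio of left to right (horizontal axis). Black squares are the edgeR log2 fold changes with their 95% intervals, coloured points the 4 embryos. The interval of *Lats1*, from 0.07 to 0.59, is the one that does not reach 0.

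*Lats2* (ENSMUSG00000021959, chromosome 14 from 57689662 to 57758388, minus strand), the paralogue of *Lats1* and itself a target of YAP and TAZ, had normalized counts of 67.3, 72.4, 68.4 and 41.8 on the left, against 71.8, 81.6, 48.2 and 39.9 on the right, in the same order of embryos. The sides overlapped, and both libraries of L49-3 were low. The log2 fold change was 0.04, with a 95% interval from -0.31 to 0.39, so a difference of up to 1.31-fold in favour of the left lies within it. Its exons share 2955 bases of the same strand with the annotated gene *Gm49361*, which was not analysed here, so the level of *Lats2* is uncertain to that extent. The ratio of *Lats2* to *Lats1*, both as counts per exon base, had a left mean of 0.582 ± 0.15 and a right mean of 0.719 ± 0.259 (SD over 4 embryos). L46-8 was the 1 embryo of 4 with the higher ratio on the left, and the difference had an exact two-sided sign-flip permutation p of 0.25 (0.583 after Benjamini-Hochberg adjustment over 7 ratios and shares). With 4 pairs there are 16 sign patterns, of which 2 give the smallest p possible, so this test cannot reach 0.05.

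*Stk3* (ENSMUSG00000022329, chromosome 15 from 34875496 to 35178921, minus strand), which encodes the MST2 kinase at the top of the cascade, had 94.9, 84.1, 104 and 57.3 normalized counts on the left, against 97.8, 92.8, 86.3 and 81.4 on the right. The left library of L49-3 was the lowest and the left library of L46-8 the highest, so the sides overlapped. The fit gave a log2 fold change of -0.07, with a 95% interval from -0.38 to 0.23. Its paralogue *Stk4*, the gene of MST1, had a left mean of 221 ± 17.8 and a right mean of 204 ± 6.44 normalized counts (SD over 4 embryos), with a log2 fold change of 0.12 and an adjusted p of 0.987 from edgeR. Per exon base, *Stk3* was at 0.395 ± 0.056 of *Stk4* (SD over 4 embryos), and the left minus right difference of this ratio was -0.0531 ± 0.0759 (exact sign-flip permutation p = 0.25). The difference was smaller than the spread between embryos.

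*Amotl2* (ENSMUSG00000032531, chromosome 9 from 102716672 to 102733418, plus strand) encodes an angiomotin-like protein that binds YAP at cell junctions and helps to hold it in the cytoplasm, and it is a YAP and TAZ target too. Its normalized count was 369, 321, 383 and 370 on the left, against 427, 380, 374 and 362 on the right. L29-3 and L43-5 had the lower value on the left, with log2 ratios of -0.20 and -0.24, and the other embryos had nearly equal sides, with ratios of 0.02 in both. The fitted difference was -0.11 on the log2 scale (standard error 0.0768, 95% interval from -0.28 to 0.06), with an adjusted p of 0.987 from edgeR.

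*Yap1* (ENSMUSG00000053110, chromosome 9 from 7931999 to 8004596, minus strand), the gene of the main coactivator, had normalized counts of 465, 503, 478 and 570 on the left, against 516, 507, 470 and 512 on the right. No side was the higher throughout, since the ratio was above 0 in 2 of 4 embryos. The 95% interval of its log2 fold change, from -0.15 to 0.15, spans 0.898-fold to 1.11-fold. *Wwtr1* (ENSMUSG00000027803, chromosome 3 from 57455649 to 57575910, minus strand), the gene of TAZ, had 112, 104, 125 and 94.5 on the left, against 108, 105, 127 and 79.8 on the right. Both sides were lowest in L49-3 and highest in L46-8. Its log2 fold change of 0.04 had a wider interval, from -0.20 to 0.29.

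Per exon base, the level of *Wwtr1* was 0.416 ± 0.0846 of that of *Yap1* (SD over 4 embryos), with a lowest library of 0.302 and a highest of 0.523. *Yap1* was thus above *Wwtr1* in all 8 libraries. The ratio was 0.424 on the left, against 0.408 on the right, a difference of 0.0158 ± 0.0337 (SD, n = 4 embryos) with an exact sign-flip permutation p of 0.5.

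Of the factors that carry YAP and TAZ to DNA, *Tead2* (ENSMUSG00000030796, chromosome 7 from 45215753 to 45233644, plus strand) was the steadiest. It had 1036, 1125, 1125 and 1081 normalized counts on the left, against 1062, 1111, 1046 and 1145 on the right. The lowest and the highest library were close to each other, and the sides overlapped fully. The SD of its log2 CPM over the 8 libraries was 0.0532, against a median of 0.204 over all genes tested, which include many genes with lower counts. The fitted log2 fold change was -0.00, with a 95% interval from -0.13 to 0.13, or 0.913-fold to 1.09-fold. This interval is the narrowest of the 10 members.

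*Tead1* (ENSMUSG00000055320, chromosome 7 from 112679318 to 112906807, plus strand), the TEAD factor known for its role in embryonic heart muscle, had 713, 598, 687 and 585 normalized counts on the left, against 718, 604, 586 and 525 on the right. L46-8 and L49-3 had more on the left, with log2 ratios of 0.22 and 0.15, and the other embryos had ratios of -0.00 and -0.01. Between the sides the log2 fold change was 0.08, with a 95% interval from -0.07 to 0.23.

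*Tead3* (ENSMUSG00000002249, chromosome 17 from 28331671 to 28350817, minus strand) had 51.9, 59.3, 79.8 and 55.7 normalized counts on the left, against 63.1, 61.9, 92.6 and 44.9 on the right. Both libraries of L46-8 stood above the rest, and L49-3 was the embryo with more on the left. *Tead4* (ENSMUSG00000030353, chromosome 6 from 128224288 to 128300823, minus strand), known for its role in the trophectoderm, had 55.9, 50.8, 54.5 and 35.6 on the left, against 82.9, 42.7, 49.5 and 44.9 on the right. The right library of L29-3 was the highest by a wide gap. Their log2 fold changes were -0.10 and -0.11, with 95% intervals from -0.43 to 0.23 and from -0.51 to 0.30, the latter being the widest among the members. A level 1.2-fold lower on the left lies within both intervals, and these counts could not show it.

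**Figure D3:**
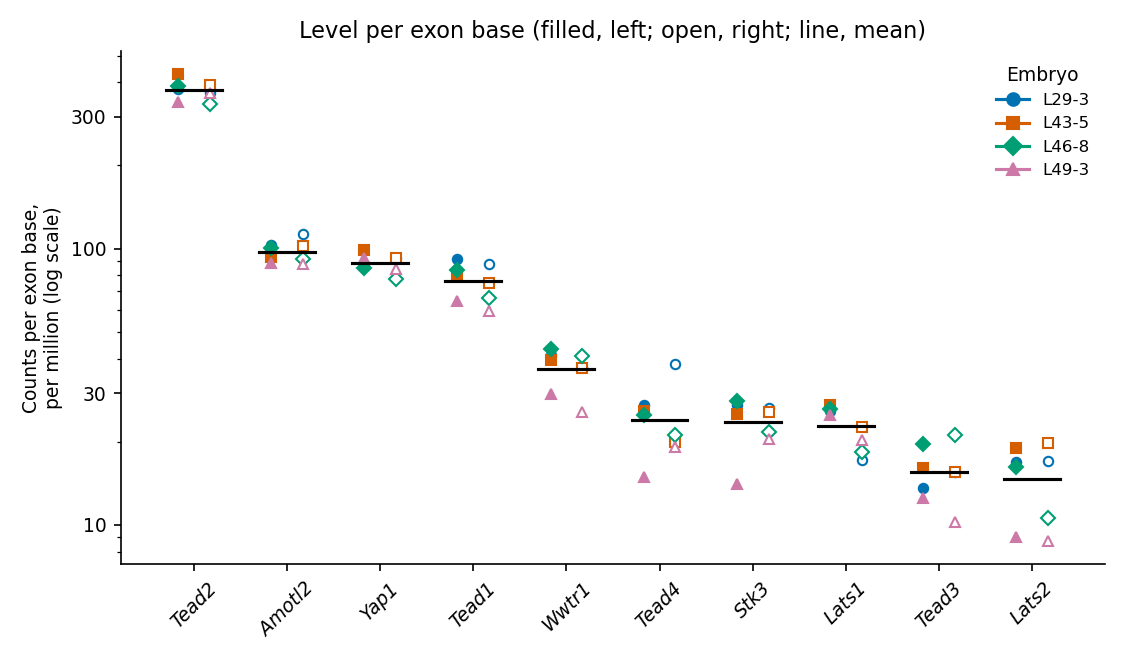
Level of each of the 10 genes as counts per exon base, scaled to the same sum over all genes in each library (1000000, vertical axis, log scale), in each library, with the mean over the 4 embryos as a line. *Tead2*, at a mean of 374, is above every other member in all 8 libraries.

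Levels were then compared between the members, as counts per exon base scaled to a sum of 1000000 over all genes, with the sides of each embryo averaged. *Tead2* had the highest level, 374 ± 25.2 (SD, n = 4 embryos), followed by *Amotl2* at 97.3 ± 7.96, *Yap1* at 89 ± 5.86, *Tead1* at 76.1 ± 11.4 and *Wwtr1* at 36.8 ± 6.29. A lower tier held *Tead4* at 23.9 ± 6.52, *Stk3* at 23.6 ± 4.3, *Lats1* at 22.8 ± 1.47, *Tead3* at 15.5 ± 3.74 and *Lats2* at 14.7 ± 4.55. Among the genes tested, *Tead2* stood at the percentile 96.3 of this level and *Lats2* at 21.5. The step from *Tead2* to the next gene, and the step from *Tead1* to *Wwtr1*, were present in all 8 libraries. *Amotl2* was above *Yap1* in 6 of 8 libraries and *Yap1* above *Tead1* in 7. *Tead4*, *Stk3* and *Lats1* could not be ordered: *Tead4* was above *Stk3* in 4 of 8 libraries and *Stk3* above *Lats1* in 6. *Lats1* was above *Tead3* in 7. *Tead3* and *Lats2*, with 4 of 8, did not differ beyond their spread either. With the length of the longest transcript in place of all exon bases, *Yap1* came before *Amotl2* and *Stk3* before *Wwtr1*, with levels of 123, 109, 34.4 and 29.4. *Tead3*, at 23.8, then came before *Tead4* at 22 and *Lats1* at 18.2, which turns their order, and *Tead2* and *Lats2* kept the first and the last place.

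Among the 4 TEAD genes, *Tead2* made up 76.5 ± 2.83% of the counts per exon base, *Tead1* 15.5 ± 1.54%, *Tead4* 4.84 ± 1.12% and *Tead3* 3.18 ± 0.759% (SD, n = 4 embryos). With the longest transcript as the length the last 2 changed places, with 4.03% for *Tead4* and 4.4% for *Tead3*. The share of *Tead2* was between 72.2% and 80.5% in every library. On the left it was 76.4% and on the right 76.6%, with a difference of -0.148 ± 1.53 percentage points (SD, n = 4 embryos). *Tead1* had the largest difference of the 4, with 15.9% on the left, against 15% on the right. The left share was the higher in 3 of 4 embryos, and its exact sign-flip permutation p was 0.25 (0.583 adjusted over the 7 ratios and shares). For the other TEAD shares the exact p was 0.625. The make-up of the TEAD family thus differed between the sides by less than the spread between embryos.

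The genes around the core were read from lists of pathway genes. Of 31 partners and regulators, 27 were tested and 1 passed the threshold of the study, *Taok3*, a kinase of the TAO family that can phosphorylate STK3 and STK4. Of 18 polarity and junction genes, 15 were tested and 1 passed, *Fat4*, an atypical cadherin and the receptor of *Dchs1*. Of 16 genes of the STRIPAK phosphatase complex, which opposes the STK3 and STK4 kinases, 15 were tested and 0 passed. Of a published set of 22 YAP and TAZ target genes, 16 were tested, including *Amotl2* and *Lats2*, and 0 passed. Over all lists and the members together, 3 of 79 tested genes passed (3.8%), against 3.05% of all genes tested, so the share is near the background. No gene of any list had an adjusted p under 0.05 in edgeR, limma-voom or DESeq2. In edgeR, 4 of the 79 had an unadjusted p under 0.05, near the 4.36% of all genes tested, and limma-voom gave 4 such genes and DESeq2 0. The median log2 fold changes were 0.04, 0.08, -0.02 and 0.03 in the order of the lists above, against -0.00 over all genes tested.

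**Figure D4:**
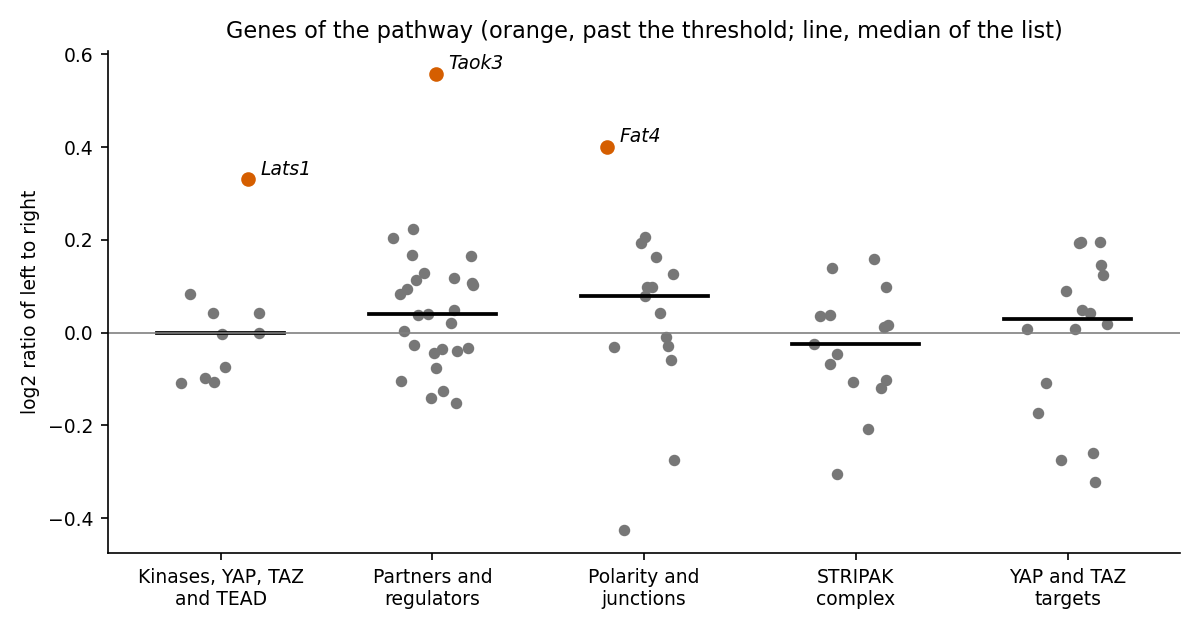
log2 fold change between the sides (vertical axis) of every tested gene of the members and of 4 lists of the pathway, with the median of each list as a line. Orange points are the 3 genes past the threshold of the study, *Lats1*, *Taok3* and *Fat4*, and the medians lie between -0.02 and 0.08.

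*Taok3* had 36.5, 41.7, 33.4 and 34.1 normalized counts on the left, against 35.9, 22.4, 26.6 and 15 on the right. The left was the higher in 4 of 4 embryos, but in L29-3 only by 0.03 on the log2 scale, and the sides overlapped. Its log2 fold change of 0.56 (standard error 0.243) had an adjusted p of 0.987 in edgeR. The unadjusted p was 0.039, and it rose to 0.211 without L43-5 and 0.107 without L49-3 in edgeR and to 0.135 with DESeq2, where the call was lost.

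*Fat4* had 73, 81.5, 74.9 and 60.4 on the left, against 54.5, 62.4, 66 and 34.9 on the right. The left side was higher in 4 of 4 embryos, with log2 ratios from 0.17 to 0.77, although the left library of L49-3 was below the right ones of L43-5 and L46-8. On the log2 scale the difference was 0.40 ± 0.152 (standard error), and edgeR gave it an adjusted p of 0.987. The unadjusted p was 0.021 in edgeR, against 0.0538 without L29-3, 0.0633 without L43-5, 0.0581 without L49-3 and 0.116 with DESeq2.

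The partners named for their direct role in the kinase cassette did not pass the threshold of the study. *Sav1*, the scaffold of STK3 and STK4, had a log2 fold change of -0.08 with a 95% interval from -0.29 to 0.14. *Mob1a* and *Mob1b*, which bind and activate the LATS kinases, had log2 fold changes of 0.04 and -0.04. *Nf2*, the gene of merlin, which recruits the LATS kinases to the membrane, had 0.11 (interval from -0.08 to 0.31). *Wwc1* and *Wwc2*, the genes of the KIBRA family, had 0.04 and -0.10. *Vgll4*, which competes with YAP for TEAD factors, had the largest value of this group, 0.21, with an interval from -0.09 to 0.50. The unadjusted p-values of these 7 genes were between 0.159 and 0.743 in edgeR.

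Target genes of YAP and TAZ were described last, since they are the usual transcript readout of the pathway. *Ccn2*, the most widely used of them, had a normalized count between 11.1 and 26.7 and reached 20 in 3 of 8 libraries, so it was not tested. *Ccn1*, a matricellular protein gene like *Ccn2*, had 77.8, 50.2, 67.5 and 60.4 on the left, against 68.1, 44.8, 68.5 and 39.9 on the right. The left was higher in 3 of 4 embryos, with a log2 fold change of 0.19 (95% interval from -0.15 to 0.54) and an adjusted p of 0.987 from edgeR. *Ankrd1*, which encodes a nuclear and sarcomeric protein of heart muscle, had a log2 fold change of -0.26, with a wide interval, from -0.78 to 0.26. This value was -0.07 without L49-3, -0.10 without L43-5, -0.43 without L29-3, -0.48 without L46-8 and -0.56 with DESeq2, and with no filter on low counts its unadjusted p was 0.0435.

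Levels between embryos were compared in the same fit, which asks whether the 4 embryos differ by more than the side and the residual spread. Of the 10 members, 0 had an adjusted p under 0.05, against 17 genes (0.174%) of all tested, and 3 members had an unadjusted p under 0.05, against 9.99% of all tested, with the edgeR F test. limma-voom and DESeq2 gave 0 members at an adjusted p under 0.05 too. The 3 are *Tead1*, *Lats2* and *Tead3*, with unadjusted edgeR p-values of 0.018, 0.0183 and 0.0235 and adjusted ones of 0.352, 0.354 and 0.383. In the same order, the unadjusted p-values were 0.0176, 0.0335 and 0.0202 with limma-voom, and 0.11, 0.134 and 0.193 with DESeq2. In edgeR the p of *Tead1* was 0.244 without L29-3 and 0.0674 without L49-3. That of *Lats2* was 0.254 without L49-3, and that of *Tead3* 0.567 without L46-8. As means of the sides, *Tead1* had 715, 601, 637 and 555 normalized counts in L29-3, L43-5, L46-8 and L49-3. *Lats2* had 69.5, 77, 58.3 and 40.8. *Tead3* had 57.5, 60.6, 86.2 and 50.3. L49-3 was the lowest embryo for all 3 genes, and for *Wwtr1*, *Tead4* and *Stk3* too, whereas for *Yap1* and *Lats1* it was the highest. Among the 3, *Tead1* stood highest in L29-3 and *Tead3* in L46-8. Without L49-3, *Tead3* still had an unadjusted edgeR p between embryos of 0.0237.

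Among the genes of the pathway lists, 9 of 79 had an unadjusted edgeR p under 0.05 between embryos (11.4%), near the 9.99% of all genes tested. With limma-voom there were 9 such genes and with DESeq2 2. An adjusted p under 0.05 was reached by 0 of the 79, with edgeR, limma-voom and DESeq2 alike. The smallest p was that of *Ankrd1*, 0.000322, with an adjusted p of 0.0817 in the edgeR F test. It passed 0.05 in 2 alternatives, with an adjusted p of 0.00537 without L46-8 and 4.81e-33 with no filter on low counts, and in the others it was between 0.0502 and 0.846. The normalized count of *Ankrd1* was 283, 134, 171 and 13.9 on the left, against 274, 203, 123 and 81.4 on the right, in the order of embryos above. L29-3 was the highest on both sides and L49-3 the lowest. The cardiomyocyte gene *Myh6* had the same order of embryos on each side, with 1548, 675, 820 and 40.3 on the left, against 1509, 1026, 430 and 234 on the right (adjusted p between embryos 0.047, edgeR). The sum of the 6 cardiomyocyte markers went from 342 and 1195 in L49-3 to 3313 and 3482 in L29-3, and *Nppa* was near 0, with at most 1.55. *Tbx5*, a marker of the juxta-cardiac field, was at 20.1 and 19.9 in L49-3 and between 90 and 164 in the other libraries (adjusted p = 0.0201, edgeR). Some endothelial and neural genes set L49-3 apart too. *Tie1* and *Tek* were lowest there on each side, with unadjusted edgeR p-values between embryos of 0.000881 and 0.00638. *Sox2* and *Rfx4* were highest there on each side, with edgeR p-values of 0.00148 and 0.00109. Not every marker of these lists went this way. As means of the sides, *Emcn* was highest in L49-3, at 21.75, and *Olig2* in L46-8, at 4.848, and neither was tested. The endothelial gene *Cdh5* had an unadjusted edgeR p between embryos of 0.126. L49-3 also had the smallest total counts, 1237593 and 1147446. The part of these markers and of depth in the differences of *Ankrd1*, *Tead1*, *Lats2* and *Tead3* between embryos was not tested.

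**Figure D5:**
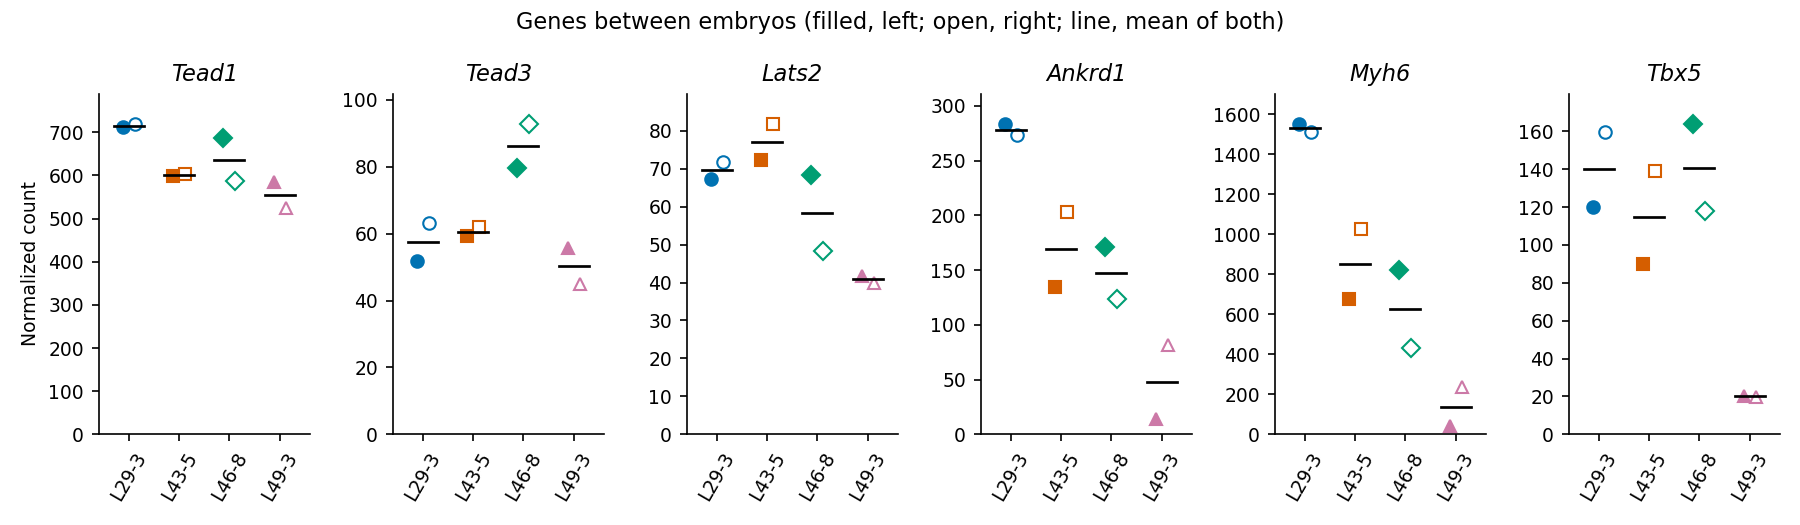
Normalized counts (vertical axes, from 0) by embryo of *Tead1*, *Tead3* and *Lats2*, of the target gene *Ankrd1*, and of the markers *Myh6* and *Tbx5*. Filled points are left and open points right libraries, and lines the mean of both; L49-3 has the lowest mean in all 6 panels.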

How the data were processed

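Paired left and right heart fields of 4 embryos (8 libraries) were used. Paired-end reads were mapped by the authors on GRCm38 (HISAT2), and duplicates, of which they report a high number, were discarded. The authors deposited raw counts per gene from featureCounts. The versions, the annotation release and the strand setting are not given in the sources used here, so reads of overlapping genes on opposite strands may not be told apart. Among the members, *Yap1* and *Tead2* share 116 and 13 exon bases with such a gene, and these neighbours had 1 and 13 reads in all. No member shares at least 90% identity over at least 300 bases with another gene, except *Lats2* with *Gm49361*. Symbols, positions and lengths are those of GENCODE vM21 (GRCm38), which gave a symbol to 48144 of 48526 identifiers.

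The 9744 genes tested had a DESeq2-normalized count of 20 or more in 4 libraries or more. Sides were compared by the quasi-likelihood test of edgeR 4.0.16 (R 4.3.3) after TMM normalization, blocked by embryo, and embryos by an F test of the embryo terms in this fit. Benjamini-Hochberg adjustment was done over all genes tested. Both libraries of an embryo come from 1 animal and are therefore paired. Over genes, left and right deviations from the side means correlated at 0.165, 0.19, -0.016 and 0.437 within L29-3, L43-5, L46-8 and L49-3, and at -0.389 to 0.255 between embryos. No libraries were duplicates (chi-square per degree of freedom of 1.93 or more over 28 pairs). log2 ratios of single embryos are from TMM-normalized CPM with a pseudocount of 0.5. Intervals of fold changes are at 95%, from the standard error of the fit.

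Shares and ratios of paralogues, from counts per exon base, were compared with an exact two-sided sign-flip permutation test over embryos, adjusted over the 7 measures. The motif was searched on both strands. DESeq2 1.42.0 and limma 3.58.1, other normalizations and filters, a fit with no block and the omission of each embryo were the alternatives. The script of the fits was tested on simulated data. The genes named are the 10 members, 13 partners and targets chosen by role, and every listed gene past a threshold between the sides. Markers named beside a result, the gene sequences shown and *Amotl1* as the gene nearest to the threshold were picked with the values known. The members and all lists were chosen with earlier results of these data known.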

Additional observations from a re-analysis of the deposited data

Results flagged for a closer look

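Among 83 sets of 4 values (both sides and the log2 ratios of the members and of the partner genes named, and the paralogue shares on each side), 4 held a value far from the other 3 by Dixon's test at 95%, and chance alone gives about 1 in 20. The cause was not tested for any of them. The right library of L29-3 had 82.9 normalized counts of *Tead4*, against 42.7 to 49.5 in the other right libraries. The left library of L49-3 had 41.8 normalized counts of *Lats2*, against 67.3 to 72.4 in the other left libraries, and its right library was low as well. *Stk4* had 248 normalized counts in the left library of L29-3, against 212 to 213 in the others. *Amot* had 825 in the right library of L46-8, against 685 to 698.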

How the results depend on the processing

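The count of members past the threshold of the study was 1 under each alternative except DESeq2, without L29-3 and without L46-8, where it was 0 (range 0 to 1 with each embryo left out), and the count at an adjusted p between embryos was 0 in each alternative that has embryo terms, which the fit with no block does not. With no replicate block, 1 member passed as well, and the pairing changed no other call of a member. Over all genes, 233 passed the threshold with no block, and 0 had an adjusted p under 0.05. With no filter, the counts over all genes were 687 past the threshold, 34 at an adjusted p between the sides and 641 between embryos, in a fit of 23873 genes whose estimated prior degrees of freedom were infinite, so that all genes shared 1 trended spread. With at least 10 counts in every library they were 0 between the sides and 9 between embryos. DESeq2 gave 59 genes past the threshold, 2 at an adjusted p between the sides and 48 between embryos, and limma-voom 4 between embryos. With each embryo left out, the counts ranged from 291 to 388 past the threshold, from 1 to 5 at an adjusted p between the sides and from 0 (without L49-3) to 237 (without L46-8) between embryos. The cause of these differences was not tested.

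Members near 0 changed sign. *Yap1* had log2 fold changes of 0.0006 with DESeq2 size factors, 0.0105 with library size alone, 0.012 with no filter, 0.048 without L29-3 and 0.0033 without L43-5. *Tead2* had 0.0023, 0.0121 and 0.0135 in the first 3 of these settings, 0.0017 with at least 10 counts, 0.0027 with limma-voom, 0.0114 without L29-3 and 0.0285 without L49-3. *Tead4* had 0.0741 without L29-3, *Stk3* 0.0148 without L49-3 and *Lats2* -0.0999 without L46-8. With each embryo left out, the log2 fold changes ranged from -0.0451 to 0.048 for *Yap1*, -0.0324 to 0.0285 for *Tead2*, -0.2622 to 0.0741 for *Tead4*, -0.0999 to 0.1585 for *Lats2* and -0.1886 to 0.0148 for *Stk3*. None of the values that changed sign had an unadjusted p under 0.05. *Wwtr1*, *Tead1*, *Tead3*, *Lats1* and *Amotl2* kept their sign in all 11 alternatives, but with each embryo left out the values ranged from 0.003 to 0.0729 for *Wwtr1*, 0.0363 to 0.1199 for *Tead1*, -0.1778 to -0.0398 for *Tead3*, 0.2779 to 0.4172 for *Lats1* and -0.1554 to -0.0569 for *Amotl2*, and the adjusted p of *Lats1* was between 0.956 and 1.0.

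The length used matters for levels. With the longest transcript, the ratio of *Wwtr1* to *Yap1* was 0.241, of *Lats2* to *Lats1* 0.863 and of *Stk3* to *Stk4* 0.655, and the share of *Tead3* 4.4%. Depth limits *Tead3*, *Tead4* and *Lats2* most, with counts down to 23 in a library.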

Other observations

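The angiomotin family, which links YAP to cell junctions, was present with all 3 genes. *Amotl1* had 508, 533, 495 and 526 normalized counts on the left in L29-3, L43-5, L46-8 and L49-3, and 485, 455, 486 and 404 on the right. Every left library was above every right library, which was so for 2.51% of all genes tested, in either direction. Its log2 fold change of 0.17 (95% interval from 0.00 to 0.33) had a p of 0.0465 before and 0.987 after adjustment in edgeR, and the fold of 1.12 is under the threshold of the study. The unadjusted p was above 0.05 without L43-5 (edgeR, 0.145), without L49-3 (edgeR, 0.198, with a log2 fold change of 0.11) and with DESeq2 (0.156). *Amot* had a left mean of 773 ± 96.4 and a right mean of 726 ± 66.2 (SD over 4 embryos), with a log2 fold change of 0.09. *Amotl2* had -0.11, so the 3 genes did not share a direction.

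*Vgll1*, *Vgll2* and *Vgll3*, the TEAD cofactors related to *Vgll4*, had at most 1, 4 and 23 reads in any library and were not tested, whereas *Vgll4* had at least 56. Between embryos, *Mob1b*, the partner of the LATS kinases, and *Wwc2* of the KIBRA family had p-values of 0.0264 and 0.0281 before adjustment in the edgeR F test, and of 0.401 and 0.409 after it. *Mob1b* had 72.8 and 74.8 normalized counts in L49-3 and between 101 and 116 in the other embryos.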
